A study of Homo sapiens with 40 samples.

Results

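Broad H3K27ac domains are the 809 H3K27ac peaks of EndoC-βH3 cells that spanned 10 kb or more, out of 51489 H3K27ac peaks in all (1.57%). They were chosen by their measured width alone, the end minus the start of each peak, so width, and any level read from the same peaks, is given as a description and never as support. The study performed ChIP-seq, in which DNA bound to a protein or histone mark is precipitated and sequenced, on EndoC-βH3, an established human pancreatic beta-cell line made from fetal pancreas. The cells were immortalized with human telomerase and the SV40 large T antigen, which 4-hydroxytamoxifen removes through a tamoxifen-inducible Cre. Apart from these inserted genes, all groups carried the wild-type genotype, and all came from this 1 line. Non-senescent cells were the untreated controls, and senescent cells had received 4-hydroxytamoxifen for 3 weeks. There were 3 H3K27ac and 3 CTCF libraries and 2 H3K4me1 and 2 Rb libraries per state, each with an input library. Treatment, loss of the immortalizing genes and senescence cannot be told apart in this design.

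H3K27ac is acetylation of lysine on histone H3, a mark of active promoters and enhancers. Long stretches of it, often discussed as super-enhancers or stretch enhancers, are known to lie at the genes that give a cell type its character, and in beta cells these include the transcription factors of islet development and the genes of insulin production. H3K4me1 marks enhancers whether or not they are active, and CTCF is a DNA-binding factor that anchors chromatin loops and boundaries.

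The table used here held 1 mean normalized count per peak, taken by the authors over all H3K27ac libraries of both states, and no value per library. Levels below are therefore the authors' means with no replicate spread and no test, and the sequencing depth reached per library is unknown from these files, although the methods give 1 target for all libraries. The tables also hold the authors' own comparison of the states for each peak, which was not used, so non-senescent and senescent cells were set side by side only through the deposited lists of enhancers, 1 per state, which the authors defined as regions with both H3K4me1 and H3K27ac outside promoters. Percentages of peaks carry 95% Wilson intervals, which cover counting error only; peaks are not replicates. Coordinates are on hg38.

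The beta-cell label was checked against marker genes, by the H3K27ac peak of highest mean count at a start site of each. All 7 beta-cell markers had such a peak, with a summed mean count of 26369, and INS, PDX1 and SLC30A8 lay in broad domains. The sum was uneven, with 10149 from PDX1 and 8978 from SLC30A8, against 3078 from INS and 204 from IAPP. Of 6 alpha-cell markers 4 had one, summing to 5729, while GCG, the glucagon gene, had none; IRX2 lay in a domain of 11014 bp. Of 6 delta and PP markers 5 had a peak, and their summed mean count was 1465. Acinar markers had 1 of 7, ductal 1 of 6, immune 1 of 6 and stromal and endothelial 0 of 7. The immune peak was a domain of 14892 bp at CD68, a lysosomal gene, that also held starts of EIF4A1 and MPDU1. PTPRC and CD3E had no peak.

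The regulatory sequences at the start of the domains' best-known genes are shown because they are the promoters that the acetylation covered. Each is the 250 bases before a RefSeq start site on GRCh38.p14, written on the strand of the gene, for the genes of the beta-cell lists in the widest domains for which a promoter was in the table, leaving out SLC30A8, with INS added after its values were seen because it encodes insulin. Capitals mark matches on either strand to TGANTCA (AP-1), TGACGTCA (CRE), CAGATGG (a NEUROD E-box) and TGCTGAC (a MAF element); TGTTTAC (FOXA), GTTGCCA (RFX), TAATTA (homeodomain) and TTTGGCGC (E2F) were also searched and had no match in them.
SCGN: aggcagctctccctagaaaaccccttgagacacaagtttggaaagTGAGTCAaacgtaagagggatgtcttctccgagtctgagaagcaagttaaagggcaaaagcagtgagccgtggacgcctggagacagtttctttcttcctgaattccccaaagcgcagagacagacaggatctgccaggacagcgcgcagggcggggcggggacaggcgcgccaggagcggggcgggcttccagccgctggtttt
PAX6: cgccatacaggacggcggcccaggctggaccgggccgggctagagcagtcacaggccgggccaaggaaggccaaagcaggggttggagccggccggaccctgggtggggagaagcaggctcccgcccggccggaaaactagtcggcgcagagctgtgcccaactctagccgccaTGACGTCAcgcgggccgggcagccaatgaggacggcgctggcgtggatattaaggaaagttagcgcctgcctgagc
NKX2-2: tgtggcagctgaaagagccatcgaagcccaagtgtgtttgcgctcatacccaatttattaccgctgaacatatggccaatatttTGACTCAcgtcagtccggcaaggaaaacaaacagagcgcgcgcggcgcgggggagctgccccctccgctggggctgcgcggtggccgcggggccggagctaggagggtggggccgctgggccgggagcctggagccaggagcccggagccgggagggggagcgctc
RIMBP2: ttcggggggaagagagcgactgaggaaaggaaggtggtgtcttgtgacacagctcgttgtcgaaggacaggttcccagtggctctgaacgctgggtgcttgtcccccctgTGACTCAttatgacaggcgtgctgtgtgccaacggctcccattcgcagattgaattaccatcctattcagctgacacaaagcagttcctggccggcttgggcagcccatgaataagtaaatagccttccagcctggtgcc
CHGA: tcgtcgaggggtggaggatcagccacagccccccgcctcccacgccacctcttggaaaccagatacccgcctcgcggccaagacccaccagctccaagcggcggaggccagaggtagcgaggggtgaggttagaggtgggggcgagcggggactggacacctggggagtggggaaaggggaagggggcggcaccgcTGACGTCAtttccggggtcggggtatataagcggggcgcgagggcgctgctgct
MNX1: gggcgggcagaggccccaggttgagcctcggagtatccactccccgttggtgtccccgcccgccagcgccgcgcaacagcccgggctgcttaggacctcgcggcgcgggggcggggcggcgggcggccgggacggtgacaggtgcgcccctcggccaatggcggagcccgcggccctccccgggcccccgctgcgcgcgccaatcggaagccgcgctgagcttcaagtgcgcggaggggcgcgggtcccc
INS: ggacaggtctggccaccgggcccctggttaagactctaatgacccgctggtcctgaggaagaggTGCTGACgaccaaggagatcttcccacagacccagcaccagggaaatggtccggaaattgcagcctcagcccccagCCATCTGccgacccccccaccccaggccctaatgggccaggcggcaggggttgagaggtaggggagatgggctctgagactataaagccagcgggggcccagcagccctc
These windows lay at chr6:25651965-25652214 (+) for SCGN, chr11:31817962-31818211 (-) for PAX6, chr20:21522690-21522939 (-) for NKX2-2, chr12:130633921-130634170 (-) for RIMBP2, chr14:92922900-92923149 (+) for CHGA, chr7:157010664-157010913 (-) for MNX1 and chr11:2161210-2161459 (-) for INS. SCGN, NKX2-2 and RIMBP2 each held an AP-1 match, PAX6 and CHGA a CRE match, INS a MAF and a NEUROD match, and MNX1 none. ABCC8 lay in a wider domain than these but had no promoter in the table that started there. Over all 21613 RefSeq promoters of protein-coding genes, AP-1 letters occurred in 5.36% and CRE letters in 2.04%, against 4.99% and 2.24% of the 581 promoters inside domains. The NEUROD E-box occurred in 2.99% and 3.44%, the MAF letters in 3.16% and 3.96%, FOXA in 2.47% and 2.58%, RFX in 3.41% and 3.44%, the homeodomain letters in 3.13% and 2.58%, and E2F in 0.699% and 0.516%. Promoters inside domains thus carried these letters at shares within 1 percentage point of those of all promoters.

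The domains were few, and most of the acetylated sequence lay in narrower peaks. Their share of it exceeded their share of peaks, which the width rule ensures. Their widths ran from 10002 to 63185 bp with a median of 12911 bp; 548 were under 15 kb, 149 from 15 to under 20 kb, 88 from 20 to under 30 kb and 24 wider. Together they took up 9.94% of the bases in all H3K27ac peaks and 15.8% of the summed mean count. Their mean count per kb had a median of 223 (47.4 to 1097), against 184 in peaks of 5 to under 10 kb and 61.7 in narrower ones, and 375 of the 809 were among the highest 10% of all peaks. Just inside the limit were peaks at UBN1 (10002 bp) and near SLC30A8 (10006 bp), and those just outside at MCF2L (9998 bp), RRBP1 (9981 bp) and MAPK8IP1 (9975 bp).

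**Figure D1:**
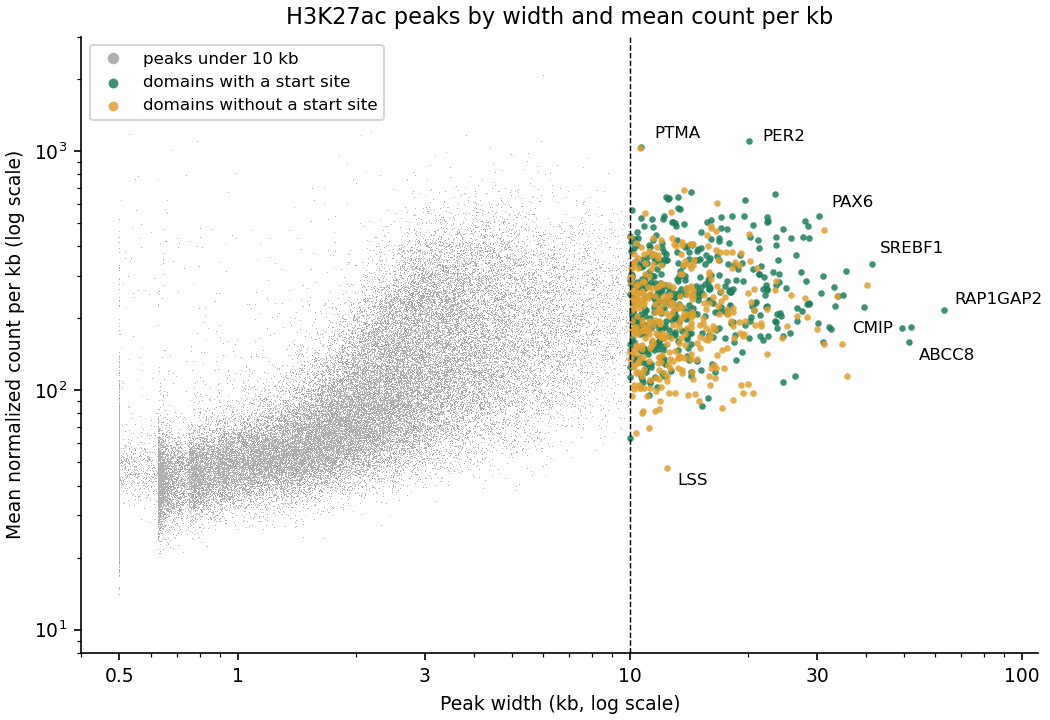
H3K27ac peak width (kb, log scale) against the authors' mean normalized count per kb (log scale); each point is 1 peak, grey under 10 kb, green for domains with a protein-coding start site inside and orange for those without. The 809 domains lie right of the dashed line at 10 kb, with PER2 highest at 1097 per kb and a domain in LSS lowest at 47.4.

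The widest domain covered 63185 bp of RAP1GAP2 (chr17:2881246-2944430), which encodes a GTPase-activating protein for RAP1, with a mean count of 13672. CMIP followed with 52043 bp (chr16:81610369-81662411), and ABCC8, the sulfonylurea receptor subunit of the beta-cell ATP-sensitive potassium channel, with 51339 bp (chr11:17400088-17451426). SLC30A8, the zinc transporter of insulin granules, had 49321 bp, and SREBF1, a regulator of lipid synthesis, 41351 bp. These were thus genes of insulin release beside genes of signalling and lipid metabolism. The next were ZFPM1 with 40124 bp, ARAP1 and STARD10 with 39469 bp, FOXP4 with 35868 bp, FUZ and MED25 with 35582 bp, and SCGN, a calcium-binding protein of endocrine cells, with 34845 bp, a domain that also held a start of ENSG00000290217.

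None of the 5 domains of highest level was among the 10 widest. The highest mean counts per kb were at PER2, a circadian clock gene (1097 per kb over 20179 bp), PTMA (1044 per kb over 10704 bp), in a region 15239 bp from the start of ASB1 (1032 per kb), within RALGAPA2 (685 per kb) and at ST18, a transcription factor (673 per kb). PER2 also had the highest mean count of any peak, 22139, followed among domains by PAX6 with 16247 and ZNF516 with 15434. The 3 widest domains, by contrast, had 216, 184 and 160 per kb, all below the domain median of 223.

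Broad domains lay at gene starts more often than narrower peaks. A start of a protein-coding transcript (GENCODE 44) fell inside 452 of 809 domains, 55.9% (52.4 to 59.3%), against 41.6% (39.97 to 43.2%) of peaks of 5 to under 10 kb and 21.8% (21.4 to 22.2%) of narrower peaks; a wider peak has more room for a start. Of the 452, 332 also held the most upstream base of a gene and 120 held only the start of a transcript that begins further downstream. Starts of 2 or more genes fell in 97 domains, with 5 in the domain of CYSRT1, RNF208, RNF224, SLC34A3 and TUBB4B, and 4 each in the domain of APEX1, OSGEP, PIP4P1 and PNP and that of GLB1L, STK16, TUBA4A and TUBA4B. Of the domains without a start, 131 overlapped an exon, 145 lay within introns and 81 were intergenic, and 58 of the 809 were over 100 kb from any protein-coding start. Domains with a start had a median GC content of 51.8% and a median of 243 counts per kb, and those without had 45.9% and 200.

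In all, 567 of 20007 protein-coding genes had a start in a domain (2.83%), or 4.53% of the 12508 with a start in any H3K27ac peak, and a further 281 were overlapped by one. Counting domains at a start, in the body or nearest to a gene, DIP2C had 6, and ZMIZ1, PTPRN2 and PLXNA2 5 each. Domains under 20 kb apart formed 72 runs with 160 domains. The longest runs by number were 4 domains at CDC42EP3 over 92465 bp, 4 from CCDC183 to EDF1 over 79353 bp, and 3 in RAP1GAP2 over 126889 bp; RFX6, a transcription factor of islet development, had 3 over 88826 bp.

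A large share of the listed transcription factors of beta-cell identity had a start in a domain. Of the 32 on the list, 14 did (43.8%, 28.2 to 60.7%), against 2.83% of all protein-coding genes. This list, like the others used here, was chosen with earlier results of these data known, so the share is a description. PAX6, a homeodomain factor of islet cells, had 30266 bp and 537 counts per kb, and NKX2-2, another homeodomain factor, 28498 bp and 484. MNX1 had 25822 bp and 434 counts per kb, and RFX6 24944 bp and 267. PDX1, the master regulator of pancreas and beta-cell genes, had 20605 bp and 493 counts per kb. Further members were INSM1, MLXIPL, ISL1, NEUROD1, ST18, HNF4A, FOXA2 and MYT1, from 11385 to 19685 bp. The NEUROD1 domain also held a start of CERKL, and the PAX6 domain a start of ENSG00000285283. Not every identity factor lay in a domain: NKX6-1 had a peak of 9013 bp, under the limit, and FOXA1, MAFA, NEUROG3, ONECUT1 and SIX3 had no peak at a start among the rows used here.

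Genes of the hormone and its granule followed. Of 31, 10 had a start in a domain (32.3%, 18.6 to 49.9%), namely SLC30A8, SCGN, RIMBP2, CHGA, STX1A, VAMP2, SYT7, CPE, INS and PTPRN2. RIMBP2, a scaffold of the release site, had 27609 bp and 437 counts per kb, CHGA, a granule protein, 26555 bp and 369, and STX1A, the membrane fusion protein syntaxin, 23671 bp and 209. INS itself lay in a domain of 13361 bp (chr11:2151199-2164559) with 230 per kb, which also held starts of IGF2 and INS-IGF2. The VAMP2 domain also held starts of PER1 and ENSG00000263620. IAPP, the amyloid peptide released with insulin, had 3161 bp at its start, and PCSK1, which cuts proinsulin, 4023 bp. PCSK2, the other convertase, had 5424 bp at its start but was overlapped by separate domains of 13527 and 13369 bp.

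Glucose sensing and excitability gave 10 of 24 (41.7%, 24.5 to 61.2%). Both subunits of the ATP-sensitive potassium channel were among them, ABCC8 as above and KCNJ11 in a separate domain of 11005 bp. CACNA1A, a calcium channel, had a start in a domain of 23654 bp, and KCNK16, a potassium channel, in one of 23567 bp with 405 counts per kb. The KCNK16 domain also held a start of KCNK17. GPR119, SLC2A1, ADCY8, FFAR1 and KCNH6 had 12950, 12032, 11620, 11178 and 10022 bp. GLP1R, the incretin receptor, had no peak at a start among the rows used here.

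Lists of other functions had lower shares, but with wide intervals. Of 20 AP-1 and immediate early genes 3 had a start in a domain: JUNB (21312 bp, 392 counts per kb), ATF4 (17348 bp, 215 per kb) and NR4A1 (13684 bp, 220 per kb). Of 16 cell-cycle arrest and p53 response genes only BAX did (15123 bp, 296 per kb). The domains of JUNB, ATF4 and BAX also held starts of HOOK2, RPS19BP1 and FTL, in that order. The shares were 15% (5.24 to 36.04%) for the AP-1 list and 6.25% (1.11 to 28.3%) for the arrest and p53 list. CDKN2A, the gene of the senescence marker p16, had a peak of 7676 bp at a start and CDKN1A, which encodes p21, one of 4742 bp. Of 20 housekeeping genes GAPDH alone had a start in a domain (15934 bp), or 5% (0.888 to 23.6%). All 20 had a peak, with a median width of 4685 bp. All of these intervals overlapped that of the hormone and granule list. Only the housekeeping interval lay below those of the identity and glucose sensing lists. The AP-1 interval alone excluded the 2.83% of all genes. The median peak at a marked start was 11984 bp for the identity regulators, 10022 bp for glucose sensing and excitability, 6121 bp for the hormone and granule list and 3016 bp over all protein-coding genes.

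**Figure D2:**
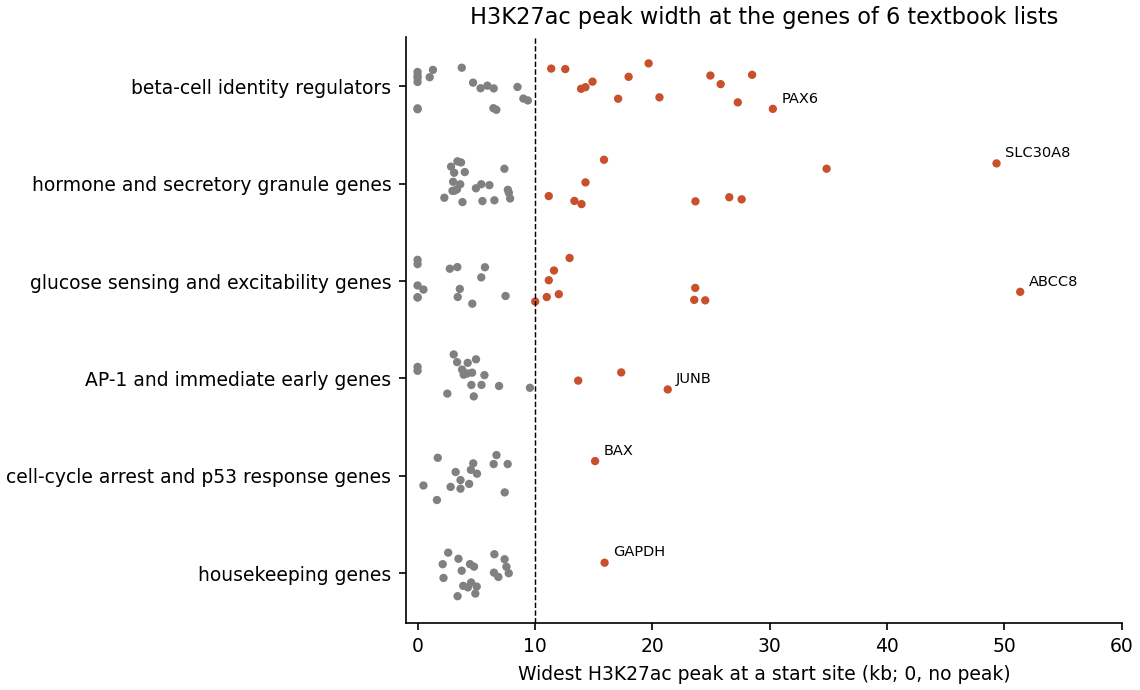
Width (kb) of the widest H3K27ac peak at a start site of each gene of 6 gene lists, 1 point per gene and 0 where there is no peak. The lists were chosen with earlier results of these data known. Points are spread vertically at random within a list and are red at 10 kb or more. Red points number 14 of 32 identity regulators, 10 of 31 hormone and granule genes and 10 of 24 glucose sensing genes, against 1 of 20 housekeeping genes. They number 3 of 20 AP-1 and immediate early genes and 1 of 16 cell-cycle arrest and p53 response genes.

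Gene signatures from the study's supplementary material were counted the same way. The beta-cell maturity signature, which shares genes with the lists above, had 17 of 72 in domains (23.6%, 15.3 to 34.6%). PKLR was among them (27896 bp), in a domain that also held starts of FDPS and RUSC1. The insulin secretion signature had 34 of 200 (17.0%, 12.4 to 22.8%). The p53 pathway had 8 of 190 (4.21%), the interferon-stimulated genes 8 of 341 (2.35%), the cell cycle signature 2 of 92 (2.17%), E2F targets 4 of 195 (2.05%) and the senescence-associated secretory phenotype 1 of 76 (1.32%), each with an interval that included the 2.83% of all genes. Every gene of the cell cycle signature had a start in an H3K27ac peak.

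The next question was how the domains appeared in each state. The enhancer lists held 14886 non-senescent and 13076 senescent regions with similar totals of 41940458 and 41010777 bp, but 179 regions of 10 kb or more (1.20%) in the non-senescent list and 269 (2.06%) in the senescent list, and a widest region of 26984 against 63185 bp. Because the lists leave out promoters, a domain's absence from a list does not show that H3K27ac was absent. Of those 332 domains with the most upstream base of a gene, 95 (28.6%) overlapped a non-senescent and 43 (12.95%) a senescent enhancer; of the 357 without a start, 325 (91.04%) and 324 (90.8%) did. Over all 809 domains 400 (49.4%, 46.0 to 52.9%) overlapped both lists and 288 (35.6%) neither. The non-senescent list alone was overlapped by 93 (11.5%) and the senescent list alone by 28 (3.46%). Both lists were overlapped by 19.9% of all 51489 peaks and 56.1% of peaks of 5 to under 10 kb, and neither by 66.7% and 38.1%. The non-senescent list alone was overlapped by 8.33% and 3.81%, and the senescent list alone by 5.09% and 1.93%. The median covered percentage of a domain was 40.4% for the non-senescent and 26.9% for the senescent list.

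The comparison was therefore made on the 340 domains whose nearest protein-coding start was over 2 kb away, a restriction chosen after the data were seen. Only protein-coding starts entered the restriction. A domain at the start of a non-coding gene could thus remain, and the lists may leave out parts of it. Of these 308 overlapped both lists, 4 the non-senescent alone, 3 the senescent alone and 25 neither. Nearly the same domains were thus listed in both states. They differed in how far the listed enhancers reached: the median domain was covered to 81.5% (quartiles 67.1 and 92.3%) by non-senescent and to 94.2% (83.9 and 98.1%) by senescent enhancers. The senescent list covered more in 236 domains and the non-senescent list in 79. A single enhancer of 10 kb or more was listed for 138 domains in non-senescent and 216 in senescent cells, 117 of them in both. By over 25 percentage points, the senescent list covered more in 65 and the non-senescent in 12.

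The same lean was present, but smaller, in narrower peaks. Among peaks over 2 kb from a start and in both lists, the widest senescent enhancer was wider than the widest non-senescent one in 235 of 308 domains (76.3%), 1200 of 1839 peaks of 5 to under 10 kb (65.3%) and 3995 of 7349 narrower peaks (54.4%). The median ratio of senescent to non-senescent width was 1.12 (quartiles 1.00 and 1.56), 1.08 and 1.03. The width rule acted on peaks drawn from both states, so it bears on these shares, and with 1 list per state no replicate error can be set beside them. The depth reached by each library, which can move peak width, is unknown here, and its part in the difference was not tested.

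**Figure D3:**
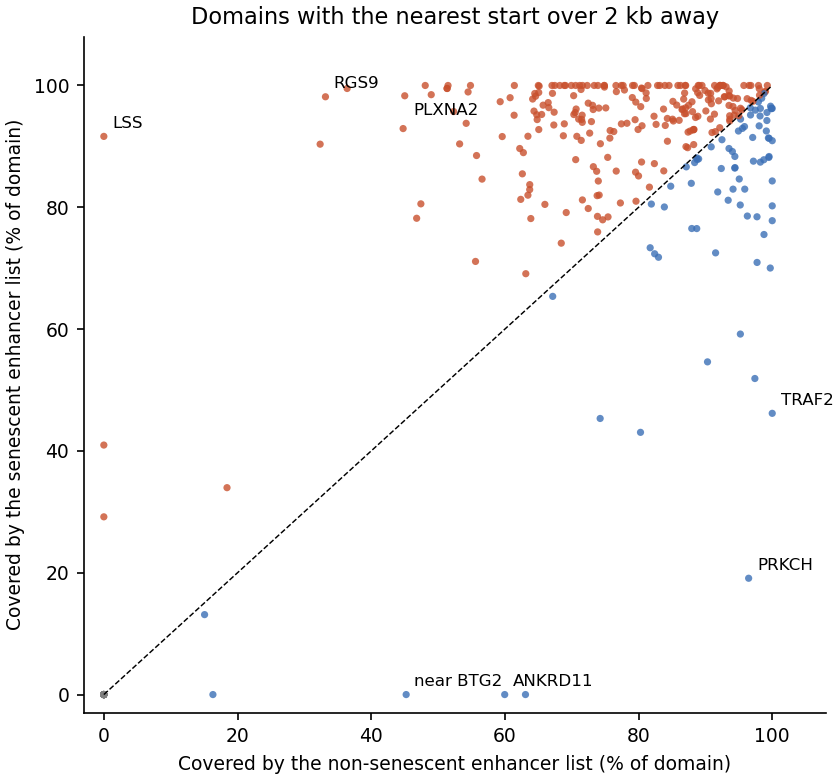
Percentage of each domain covered by the non-senescent (horizontal) and the senescent enhancer list (vertical), 1 point per domain, for the 340 domains with the nearest protein-coding start over 2 kb away; red, more senescent; blue, more non-senescent; grey, equal. Red points number 236 and blue points 79.

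Over all domains, the senescent list covered more at MBNL1 (0 against 95.3%), LSS (0 against 91.6%), ECE1 (10.1 against 95.8%), CLASRP (23.3 against 96.9%) and CDC42EP3 (24.2 against 90.6%). ECE1 encodes an endothelin-converting enzyme, and its 33815 bp domain (chr1:21245041-21278855) held 1 non-senescent enhancer of 3424 bp and 1 senescent enhancer of 32393 bp. The LSS domain had the lowest mean count per kb of all, 47.4. The non-senescent list covered more at PBOV1 (78.0 against 0%), PRKCH (96.5 against 19.1%), CMIP (74.4 against 0%), JUP (73.2 against 0%) and TACC1 (70.5 against 0%). The lists leave out promoters, and of these 10 domains CLASRP, CDC42EP3, PBOV1, CMIP and JUP had a start inside, while ECE1, TACC1 and MBNL1 had one 694, 860 and 1129 bp away. LSS and PRKCH, a protein kinase C gene, had the nearest start farther off, at 9654 and 14640 bp.

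Among the 340 domains, the largest excess of senescent cover after LSS, chosen after the values were seen, was in RGS9 (33.2 against 98.1%), 2028524 bp from CELF4 (36.4 against 99.5%), 785740 bp from PLA2G4A (32.4 against 90.4%), in PLXNA2 (45.0 against 98.3%) and in PTPRN2 (48.1 against 100%). PTPRN2 encodes a granule membrane protein, and its domain had a non-senescent enhancer of 5786 bp and a senescent one of 12033 bp. In the other direction, after PRKCH, came a second domain in RAP1GAP2 (63.1 against 0%), ANKRD11 (59.98 against 0%), TRAF2 (100 against 46.2%), ERI3 (97.4 against 51.9%) and one 11967 bp from BTG2, an anti-proliferative p53 target (45.2 against 0%).

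The 10 widest domains varied in this respect. In the widest RAP1GAP2 domain the non-senescent list had 3 enhancers, the widest of 26159 bp, and the senescent list 1 of 63185 bp that filled it. ZFPM1 had 3 non-senescent enhancers covering 74.9% and 1 senescent enhancer covering 100%. In ABCC8 2 non-senescent enhancers, the widest of 23764 bp, stood against 1 senescent enhancer of 44989 bp, yet the covered percentages were close, 83.4 and 87.6%. They were also close at FOXP4, 73.9 and 78.5%, and at SLC30A8, 35.1 and 37.1%. CMIP, ARAP1 with STARD10 (31.1 against 0%) and SCGN (54.1 against 0%) were covered by the non-senescent list alone, and SREBF1 and FUZ with MED25 by neither. All of these but ZFPM1 and FOXP4 held a protein-coding start. Narrower domains in granule genes varied too. One in CADPS, a priming factor for granule release, was covered to 54.2% in non-senescent and 93.8% in senescent cells. Those within PCSK2 were covered to 76.6 and 91.7% in non-senescent and to 100 and 99.4% in senescent cells. Others were covered nearly alike in non-senescent and senescent cells, a SYT7 domain to 99.9 and 96.2% and another PTPRN2 domain to 81.6 and 83.3%. A further SLC30A8 domain had 93.6 and 94.2%.

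**Figure D4:**
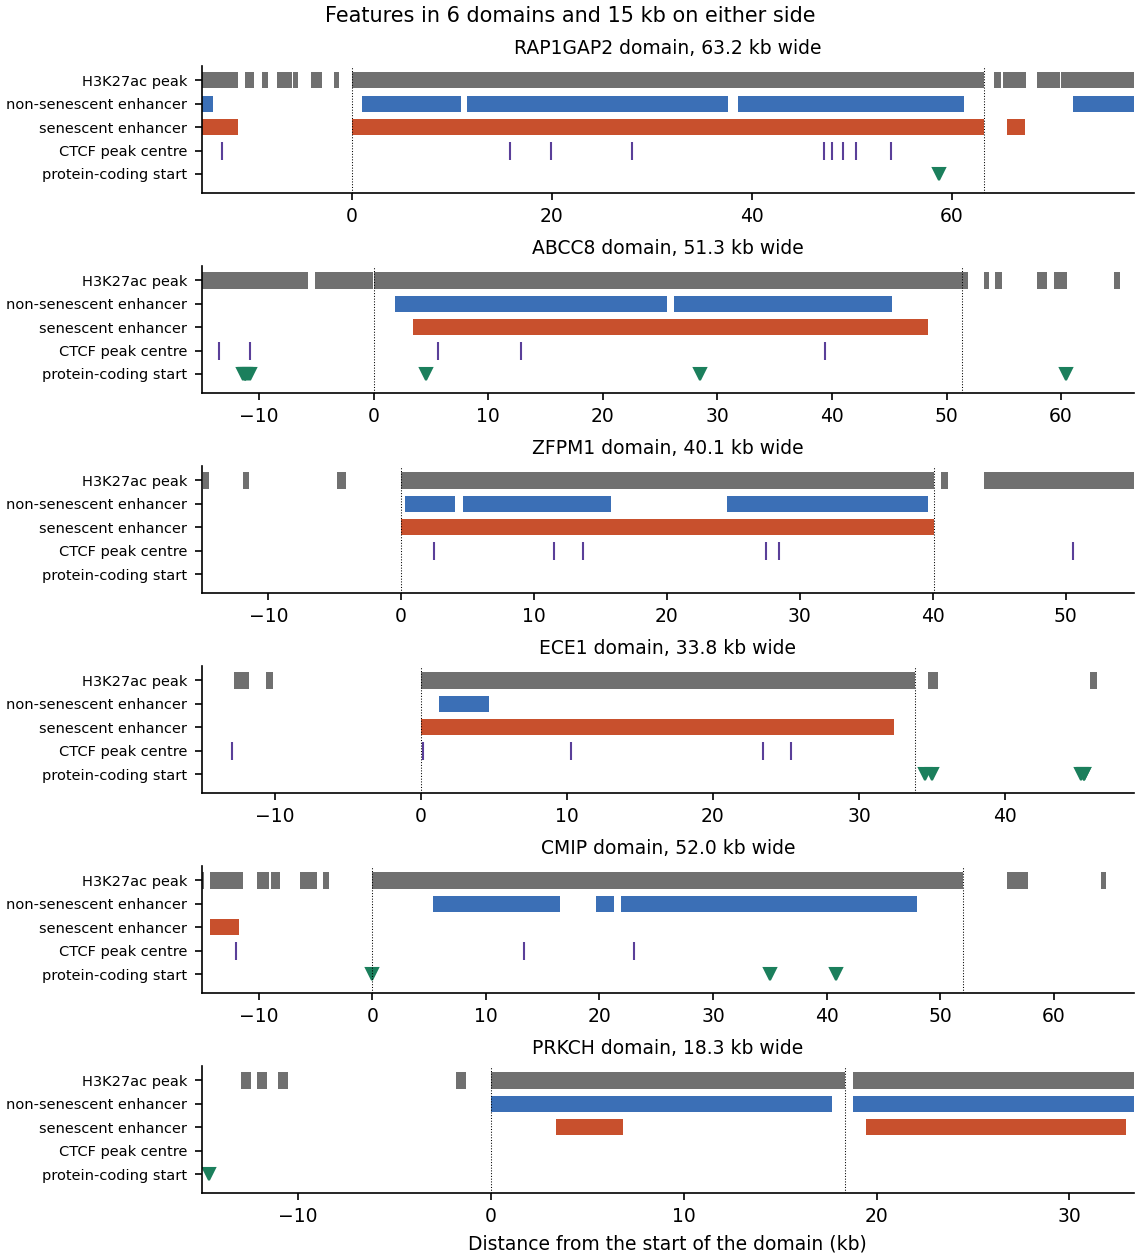
Features in 6 domains and 15 kb on either side, with distance from the start of the domain in kb; bars are H3K27ac peaks (grey), non-senescent (blue) and senescent (red) enhancers, ticks are CTCF peak centres and triangles protein-coding starts. RAP1GAP2 and ZFPM1 have 3 blue bars and 1 red bar, ECE1 a short blue and a long red bar, CMIP blue bars alone, and PRKCH a long blue and a short red bar.

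CTCF did not enter the choice of domains. A CTCF peak centre lay in 571 of 809 domains (70.6%, 67.3 to 73.6%), and the 1067 such peaks gave 0.890 per 10 kb (0.837 to 0.945, exact Poisson), against 0.393 (0.372 to 0.416) in the 20 kb on either side. Peaks of 5 to under 10 kb had 0.973 inside and 0.314 beside them, and narrower peaks 1.25 and 0.272. Per base, and over CTCF peaks of any mean count, density was thus lower in broad domains than in narrower H3K27ac peaks, and higher beside them. Flanks were not merged, so the same CTCF peak could count more than once. They could also hold other H3K27ac peaks or domains. The intervals of the flanks leave this out, and the part of neighbouring acetylation in the difference was not tested. At a mean count of at least 50, only the density inside domains was computed. Domains with a start had 1.04 per 10 kb and those without 0.676, and the outer 20% at each end of the domains 0.927 (0.843 to 1.02) against 0.864 (0.798 to 0.935) in the rest, with overlapping intervals. Of the domains 238 held none, 256 held 1, 191 held 2, 84 held 3 and 40 held 4 or more. RAP1GAP2 held 8, a GSE1 domain 6, and 11 domains 5 each, PLEKHA6 and ZFPM1 among them. The authors' mean normalized CTCF count had a median of 41.2 inside domains and 59.2 elsewhere.

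The CTCF sites below come from CTCF peaks of high mean count inside domains, the 6 highest that held a match, and are shown as examples of CTCF sites within broad acetylation. Each is 30 bases of hg38, written on the strand of the match, with capitals on a strict match to the CTCF core motif; 19 peaks were looked at to find them, and those without a match included peaks of higher mean count than some shown.
PTMA first site: cctctgtgtCCACCAGGGGGCGcccattcc
PTMA second site: ggcttcggCCGCCAGGGGGCGagagcgggc
NR4A1 site: tcctgttaCCAGCAGAGGGCAccaccgtac
RHOF and SETD1B site: ggcgattgcCCGGCAGAGGGCGtcagacgt
SLC25A25 site: ggaattggCCGCTAGGTGGCAgcagcaggc
CCDC183 and TMEM141 site: ctgactccCCAGCAGGGGGCGccaagtcac
They lay at chr2:231715404-231715433 (-), chr2:231710436-231710465 (+), chr12:52025819-52025848 (+), chr12:121794326-121794355 (-), chr9:128117756-128117785 (+) and chr9:136791834-136791863 (+), in that order, in CTCF peaks with mean counts of 1202, 1177, 896, 885, 611 and 584. The sites in the PTMA domain were on opposite strands. This strict pattern occurred in 83 of 1067 CTCF peaks inside domains (7.78%) and 6454 of 50390 elsewhere (12.8%); the peaks had median widths of 737 and 852 bp.

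**Figure D5:**
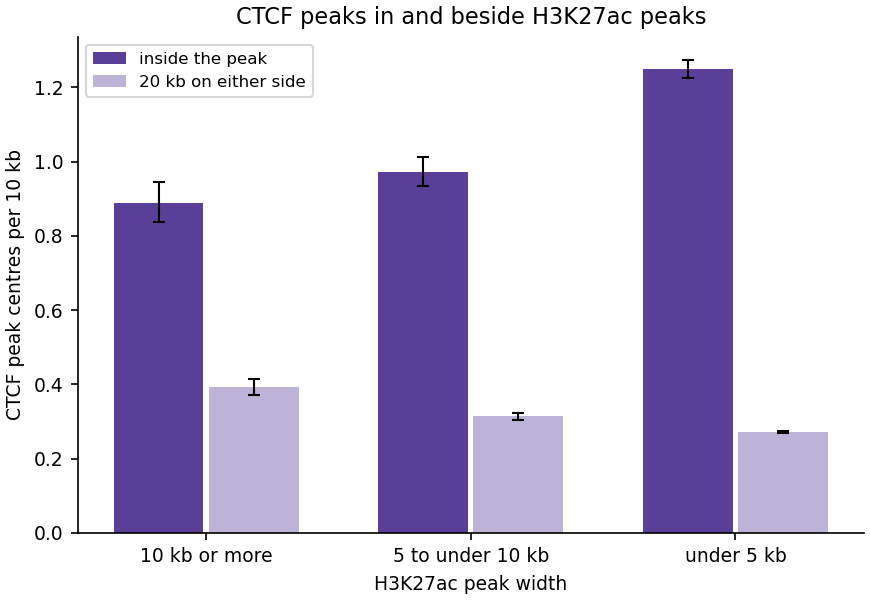
CTCF peak centres per 10 kb inside H3K27ac peaks of 3 width classes (dark bars) and in the 20 kb on either side (light bars), with exact Poisson 95% intervals. Density inside is 0.890 for domains and 1.25 for peaks under 5 kb, and density beside them is 0.393 and 0.272. Flanks were not merged, so the same CTCF peak could count more than once, and the intervals leave this out.

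Rb, the retinoblastoma protein that represses cell-cycle genes, was given as regions the authors found in senescent against non-senescent cells. Such regions overlapped 26 domains (3.21%, 2.20 to 4.67%), and the 30 regions gave 2.50 per Mb, near the 2.51 per Mb in peaks of 5 to under 10 kb and under the 3.23 per Mb in narrower peaks. The domains with an Rb region included PER2, PTMA, CAMK2N1, NR4A2, NR3C1 and INSIG1.

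The 8 motifs were also counted along the whole domains. The NEUROD E-box had 2.48 matches per 10 kb against 2.25 in peaks of 5 to under 10 kb and 2.30 in narrower ones, and the MAF letters 1.55 against 1.41 and 1.45. AP-1 letters had 2.93 against 3.09 and 3.14, FOXA 1.36 against 1.61 and 1.79, and homeodomain letters 2.83 against 3.39 and 3.59. RFX had 1.16 against 1.11 and 1.16, CRE 0.0900 against 0.0845 and 0.107, and E2F 0.0517 against 0.0628 and 0.0722. Domains had a median GC content of 48.4%, against 46.8% in the middle class, and base composition was not taken into account in these counts.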

How the data were processed

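The authors mapped trimmed reads to hg38 using Bowtie2. Removal of duplicates is stated for H3K27ac, H3K4me1 and Rb, and not for CTCF. Peaks came from HOMER for both histone marks and from MACS2 for CTCF and Rb. Versions and the way replicates were merged are not given in the sources used here. The authors deposited a signal per peak, their mean DESeq2-normalized count over all libraries. The tables also hold the authors' fold changes, standard errors, statistics and p-values between states, which were not used. The tables used give no value per library, so no test was run and the depth reached is unknown beyond 1 target common to all libraries.

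Peaks of 10 kb or more were kept, and overlaps were computed with Python 3.11.15, numpy 2.4.6, pandas 2.3.3 and SciPy 1.17.1, after interval code was tested on simulated data. Table starts were read as 0-based, since they equal those of the deposited enhancer BED files, and are printed 1-based. Starts came from GENCODE 44, which has the same build. CTCF peaks were placed by their centre. Named domains were the 10 widest, the 5 of highest count per kb, the edges of the limit, those holding list genes, the largest differences between lists, and the longest runs. The members and lists were chosen with earlier results of these data known. Alternatives for the width limit, start rule, enhancer width and CTCF level are given in the closing section. The 24 main chromosomes were used, and 1106 list symbols matched directly, 44 by an older symbol and 10 not at all. A few genes are not reported here by name.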

Additional observations from a re-analysis of the deposited data

How the results depend on the processing

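Of 38 alternatives over 8 results, 24 stayed within the counting interval, or within 1.5 times for a count, and 14 moved. A width limit of 8 kb gave 1416 domains, 50.1% with a start site, and median cover of 50.1% by the non-senescent and 52.0% by the senescent list. A limit of 15 kb gave 261 domains, 62.1% with a start site, 9 identity regulators and 6 hormone and granule genes. Counting the most upstream start of a gene alone gave 41.2% of domains with a start, or 333, of which 1 held no start of a protein-coding transcript and is not among the 332 above. By this rule 11 identity regulators and 7 hormone and granule genes had a start in a domain. The glucose sensing and excitability list was not counted by this rule. Keeping only enhancers of at least 1000 bp left 49.4%, 40.4% and 26.9% as they were. Requiring 50% of a domain to be covered gave 43.1% in both lists. Keeping only domains over 2 kb from a start, an alternative added after the data were seen, gave 90.6% in both lists and median cover of 81.5% and 94.2%. With CTCF peaks of a mean count of at least 50, density was 0.407 per 10 kb of domains. Flanks and narrower peaks were not counted at this level. The order of the median cover of the states therefore depends on which domains are counted: over all domains it is higher for the non-senescent list, and at the 8 kb limit and away from starts it is higher for the senescent list. No paired analysis was possible because the tables hold no values per library, and no replicate could be left out for the same reason. The state lists have no replicates.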
